A study of Mus musculus with 24 samples.

Results

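Genes along the whole of mouse chromosome 12 had lower RNA levels in 1CF10, a clone of ID8 ovarian cancer cells with a knockout of the interferon receptor gene Ifnar1. The members described here were all chromosome 12 genes with a mean of at least 40 UMIs (unique molecular identifiers, each counting 1 captured RNA molecule) over 24 libraries, without 13 genes left out by name, among them the interferon-stimulated genes Rsad2 and Cmpk2. That rule kept 214 of 24614 gene rows, out of 951 rows and 223 rows above the minimum on this chromosome, and 9 of the 13 named genes were above it. They comprised 182 protein-coding genes, 30 processed pseudogenes, 1 transcribed processed pseudogene and 1 small nucleolar RNA. GENCODE M21 placed 213 of them on GRCm38 between Rab10, which starts at position 3247428, and Ncapg2, which ends at position 116463731. The chromosome was selected on the low levels of its genes in the untreated libraries of 1CF10, so differences of untreated 1CF10 from other lines are given as a description without a test. The 2 members just inside the minimum, Nudt14 and Rdh14, had means of 40.1 and 40.2 UMIs, and the 2 genes just outside, Pnpla8 and Zfp410, had 39.9 each. In treated 1CF10 against treated controls these 4 stood at log2 differences of -0.77, -0.35, -0.43 and -0.23.

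The libraries came from 4 lines on one background, ID8 mouse ovarian cancer cells that all lack both Trp53 and Brca2. WT was untransfected, EV had received an empty CRISPR vector, and 1CF10 and 2CD7 were each a single Ifnar1 knockout clone. Each line was untreated (UT) or given the recombinant mouse cytokine interferon beta (IFN beta) for 3 h at a dose of 10000 IU/ml, with 3 libraries per group. The 3 were technical replicates treated on one date, so p-values measure only the spread between such libraries, and with 1 clone per name a difference cannot be told apart from clonal variation. Library totals were 1972192 to 3097331 UMIs, and all 214 members were among the 11698 genes tested. ID8 derives from ovarian surface epithelium, and 10 mesothelial and epithelial markers summed to 3845 to 5496 CPM (UMI counts scaled to 1000000 per library) in each library, with group means from 4024 in treated 1CF10 to 5342 in treated WT. The largest part of that sum was Vim, at a mean of 1525 CPM over all libraries, followed by Krt18 at 830, Krt19 at 805 and Krt8 at 647. Upk3b was at 6.02 CPM, and 2 of the 10 had means under 1 CPM, Krt7 at 0.35 and Cdh1 at 0.21. Of 6 leukocyte markers, 5 had no UMI in any library. A sum of 4 fibroblast markers was higher in 1CF10, at 155 CPM treated and 160 untreated, than in the other groups at 31.6 to 83.5 CPM, and its part in the results below was not tested. Most of that sum was Col1a1. Means over all libraries were 63.9 CPM for Col1a1, 12.6 for Dcn, 0.18 for Col1a2 and 0.016 for Pdgfra. Ifnar1 itself stood at 7.38 to 14.7 CPM in group means, and 3′ tags outside an edited site do not check the knockout.

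In cells with an abnormal chromosome number, the RNA level of most genes on a gained or lost chromosome tends to follow the number of gene copies, although many genes shift by less than in proportion. Mouse chromosome 12 is acrocentric and holds genes of every housekeeping class, among them ribosomal proteins and proteasome subunits, beside the imprinted Dlk1-Dio3 cluster and the immunoglobulin heavy chain locus. RNA levels do not count gene copies. In bulk samples, a lower level in every cell and a complete absence from some cells cannot be told apart, and DNA was not analysed here. Levels are relative to the UMIs of each library, so RNA content per cell was not measured.

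Sequences upstream of 5 members are shown because these genes represent the patterns described below. Rps7 and Laptm4a were lower in 1CF10, Daam1 and Ddx24 rose with IFN beta in the controls and did not pass the test for a response in the clones, and Flrt2 was higher in both clones than in the controls after treatment. Each is the 250 bases before a start site given by RefSeq on GRCm38.p6, printed 5′ to 3′ on the strand of the gene, and none overlaps an exon of GENCODE M21. Capitals mark a match on either strand to 1 of 5 motifs: the interferon-stimulated response element core (GAAA, any 2 bases, GAAA), the ETS core CGGAAG, the E-box CACGTG, the CCAAT box CCAAT and the TATA box TATAAA. The windows are chr12:28635954-28636203, minus strand, for Rps7, chr12:8921057-8921306, plus strand, for Laptm4a, chr12:71830818-71831067, plus strand, for Daam1, chr12:103425848-103426097, minus strand, for Ddx24, and chr12:95691976-95692225, plus strand, for Flrt2.
Rps7: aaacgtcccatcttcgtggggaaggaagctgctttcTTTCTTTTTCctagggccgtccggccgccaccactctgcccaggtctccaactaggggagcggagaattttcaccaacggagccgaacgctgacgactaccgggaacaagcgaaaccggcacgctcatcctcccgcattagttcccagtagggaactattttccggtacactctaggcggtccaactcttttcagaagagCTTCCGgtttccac
Laptm4a: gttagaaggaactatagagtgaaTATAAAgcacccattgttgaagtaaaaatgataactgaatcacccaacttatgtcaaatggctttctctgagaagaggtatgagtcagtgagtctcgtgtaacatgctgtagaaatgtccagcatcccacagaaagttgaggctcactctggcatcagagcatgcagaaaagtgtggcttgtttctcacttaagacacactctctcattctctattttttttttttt
Daam1: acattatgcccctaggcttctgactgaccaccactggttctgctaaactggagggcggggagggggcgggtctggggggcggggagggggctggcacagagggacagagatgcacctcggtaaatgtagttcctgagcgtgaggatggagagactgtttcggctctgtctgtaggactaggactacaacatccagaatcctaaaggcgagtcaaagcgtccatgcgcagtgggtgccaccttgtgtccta
Ddx24: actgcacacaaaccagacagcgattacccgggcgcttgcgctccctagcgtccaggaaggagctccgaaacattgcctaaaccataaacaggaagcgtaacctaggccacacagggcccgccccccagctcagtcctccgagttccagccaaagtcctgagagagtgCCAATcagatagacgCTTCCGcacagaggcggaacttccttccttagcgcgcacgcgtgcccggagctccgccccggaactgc
Flrt2: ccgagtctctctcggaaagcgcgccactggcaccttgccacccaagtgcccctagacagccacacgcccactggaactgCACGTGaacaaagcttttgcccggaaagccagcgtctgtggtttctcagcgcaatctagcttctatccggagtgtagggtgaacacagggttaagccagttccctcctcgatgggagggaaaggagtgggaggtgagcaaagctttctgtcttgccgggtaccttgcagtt
In Rps7 the capitals are the response element core and the ETS core, both read on the opposite strand. In Laptm4a they are the TATA box, in Ddx24 a CCAAT box and an ETS core, and in Flrt2 the E-box, while the Daam1 window shown holds no match. A second RefSeq start site of Daam1, whose window is not shown, has a CCAAT box.

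RefSeq start sites matched 157 members, with 195 windows. Of these windows 29.2% held the ETS core, against 28.5% of 6779 windows of genes above the same minimum on other chromosomes and 13.6% of all 32851 windows. CCAAT occurred in 34.4%, against 35.1% and 33.8%. The E-box occurred in 7.69%, against 8.98% and 6.02% and TATAAA in 5.13%, against 6.23% and 12.4%. The interferon-stimulated response element core was in 3.08%, against 2.73% and 2.98%. Among the 115 windows of members called lower in treated 1CF10 it was in 4.35%, and among the 12 windows of 8 members that IFN beta raised in a control (1 other had no match) it was in 0. The median GC content was 64% in member windows, 60.8% in those of the genes on other chromosomes and 52.4% in all windows. Matches may overlap, and a match or its absence in this window is a description of letters alone.

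The members together held 1.86% ± 0.057 (SD, n = 3) of all UMIs in treated 1CF10, against 2.20% ± 0.022 in treated 2CD7, 2.29% ± 0.026 in treated EV and 2.15% ± 0.020 in treated WT. Without treatment the shares were 1.84% ± 0.016 in 1CF10, 2.19% ± 0.0068 in 2CD7, 2.35% ± 0.052 in EV and 2.19% ± 0.016 in WT. Both 1CF10 groups thus lay below every other group by several times the spread between libraries, EV had the highest share in either state, and 2CD7 and WT lay close to each other. As a second measure, each library's level of each member was divided by the mean of the 6 control libraries of the same treatment, on the log2(CPM + 0.5) scale after TMM scaling, and the median over members was taken. It was -0.31 to -0.37 in the 6 libraries of 1CF10. In 2CD7 it was -0.035 to -0.085, in EV 0.017 to 0.069 and in WT -0.030 to -0.050. For 7408 genes above the same minimum on other chromosomes it was -0.015 to 0.018 in all 24 libraries.

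**Figure D1:**
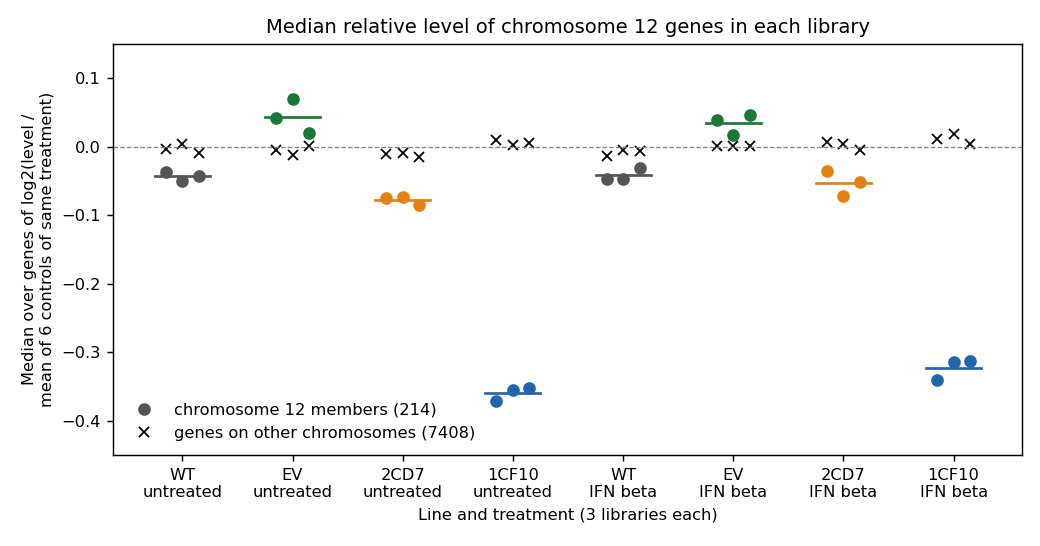
Median over genes of the log2 level relative to the 6 control libraries of the same treatment (y axis) for each library, by line and treatment (x axis). Filled points are medians of the 214 chromosome 12 members with a bar at the mean of 3 libraries, and crosses are medians of 7408 genes on other chromosomes. The 6 libraries of 1CF10 sit between -0.31 and -0.37, and all other libraries lie between -0.085 and 0.069.

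Untreated 1CF10, from which the choice of chromosome came, showed a median log2 difference from untreated controls (the mean of EV and WT) of -0.37, which is a level of 77.6%, with 192 of 214 members below 0. The median was -0.43 against EV alone, -0.31 against WT alone, and 2CD7 stood 0.26 above 1CF10. For 90 members all 3 untreated 1CF10 libraries lay below all 6 untreated controls, and for 1 all lay above, where 6.74% and 5.16% of all tested genes did so. The treated libraries are separate libraries of the same clone, and their contrasts were tested. Because the clone is the same, the choice of chromosome favours lower 1CF10 values in these contrasts too.

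Treated 1CF10 differed from treated controls by a median log2 of -0.32 over the members, with quartiles of -0.48 and -0.15 and a range of -1.51 to 0.62. That median is a level of 80.1%. Of the members, 88.8% lay below 0, while the median was 0.02 over all tested genes and 0.03 over the genes on other chromosomes. By edgeR's quasi-likelihood test with Benjamini-Hochberg adjustment over all tested genes, 122 members were lower, 3 were higher (Ifrd1, Traf3 and Flrt2) and 89 were not called. Of all tested genes, 15% were called lower and 13.3% higher, and of the genes on other chromosomes 16.7% each way. All 3 treated 1CF10 libraries lay below all 6 treated controls for 90 members (42.1%), against 10.7% of all tested genes, and above them for 0 members, against 7.69%.

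The size of the difference varied from gene to gene. In treated 1CF10, 8 members were lower by over 2-fold, 26 by 1.5-fold to 2-fold, 72 by 1.25-fold to 1.5-fold and 84 by less, while 20 were higher by less than 1.25-fold and 4 by more. Among the 18 members called in the response of EV or WT to IFN beta, the lowest 1CF10 value was -1.51 treated and -0.75 untreated. Among the other 196 it was -1.22 treated and -1.10 untreated. Against treated EV, 117 members were lower and 2 higher with a median of -0.37 (11.6% and 7.34% of all tested genes), and against treated WT 102 were lower and 7 higher with a median of -0.29 (17.1% and 14.9%). In both, 78 members were lower, 0 were higher in both, and 36 had opposite signs in the 2 comparisons. These comparisons share the 1CF10 libraries. The share of all tested genes was not taken for these joint counts, so they are a description.

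**Figure D2:**
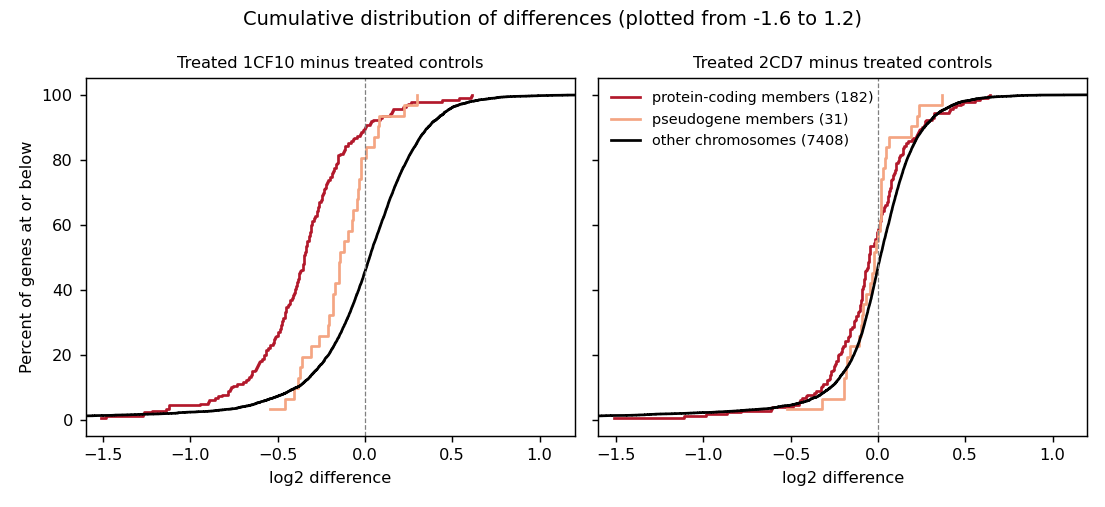
Cumulative percent of genes (y axis) at or below a log2 difference (x axis) for treated 1CF10 and treated 2CD7, each minus treated controls. Lines are the 182 protein-coding members, the 31 pseudogene members and 7408 genes on other chromosomes. In 1CF10 the protein-coding line is centred at -0.35 and the pseudogene line at -0.14, while in 2CD7 the members' medians are -0.05 and -0.02.

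Protein-coding and pseudogene members differed in size. In treated 1CF10 the 182 protein-coding members had a median of -0.35, with 113 lower and 3 higher, and the 31 pseudogenes had a median of -0.14, with 9 lower and 0 higher. Untreated, the medians were -0.39 and -0.0056. Processed pseudogenes are copies of a messenger RNA inserted away from their parent gene, so reads assigned to them can come from the parent on another chromosome, and their counts are uncertain. Split into 3 groups of near equal size by mean UMIs (40.1 to 86.4, 87.1 to 182.5 and 182.5 to 3936), the members had treated medians of -0.34, -0.31 and -0.34 from the least to the most counted. For the 196 members not called in the response of EV or WT to IFN beta the median was -0.32, with 111 lower and 3 higher.

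Among 20 chromosomes with at least 20 genes above the minimum, chromosome 12 had the lowest median in treated 1CF10. The next were chromosome 18 at -0.09, 19 at -0.08 and 7 at -0.08, and the highest was 16 at 0.09. These values are against the mean of EV and WT. Against EV alone chromosome 18 stood at -0.24 and chromosome 12 at -0.37, and against WT alone they stood at 0.03 and -0.29. In untreated 1CF10 the chromosome next to 12 was 19, at -0.14 over both controls. In treated 2CD7 chromosome 12 stood at -0.04, the third from the lowest, and in treated EV minus treated WT at 0.07, the third from the highest. For comparison, the widest medians in those 2 contrasts were 0.20 for chromosome 14 in 2CD7 and 0.28 for chromosome 18 in EV minus WT.

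**Figure D3:**
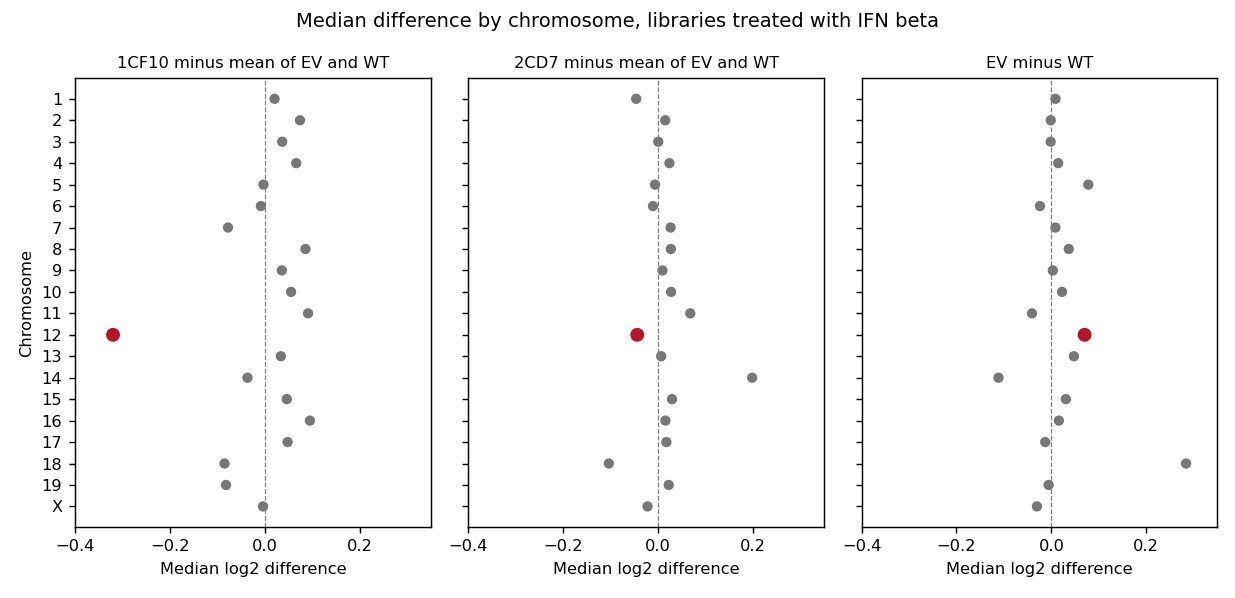
Median log2 difference (x axis) of genes with a mean of at least 40 UMIs on each chromosome (y axis), in treated libraries, for 1CF10, 2CD7 and EV. Both clones are set against the mean of EV and WT. Chromosome 12 (red, larger) is at -0.32 in 1CF10, -0.04 in 2CD7 and 0.07 in EV minus WT. The other 19 chromosomes are between -0.09 and 0.09 in 1CF10.

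Position along the chromosome was described by splitting the 213 placed members, in order, into 8 blocks of 26 or 27. All 8 block medians were negative in treated 1CF10, from -0.27 (Hpcal1 to Zfp277) to -0.41 (the block that starts at Dlst), and each block had 13 to 19 members called lower and at most 1 higher. Without treatment they ran from -0.30 to -0.43. In treated 2CD7 the 8 medians were -0.09 to 0.02, and in treated EV minus treated WT 0.0079 to 0.18. The shift in 1CF10 was thus present from the first block, Rab10 to Gm22748 at -0.28, to the last, Cinp to Ncapg2 at -0.27. The imprinted Dlk1-Dio3 cluster between them had no member, as 1 of its 6 listed genes was in the table and none reached the minimum.

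**Figure D4:**
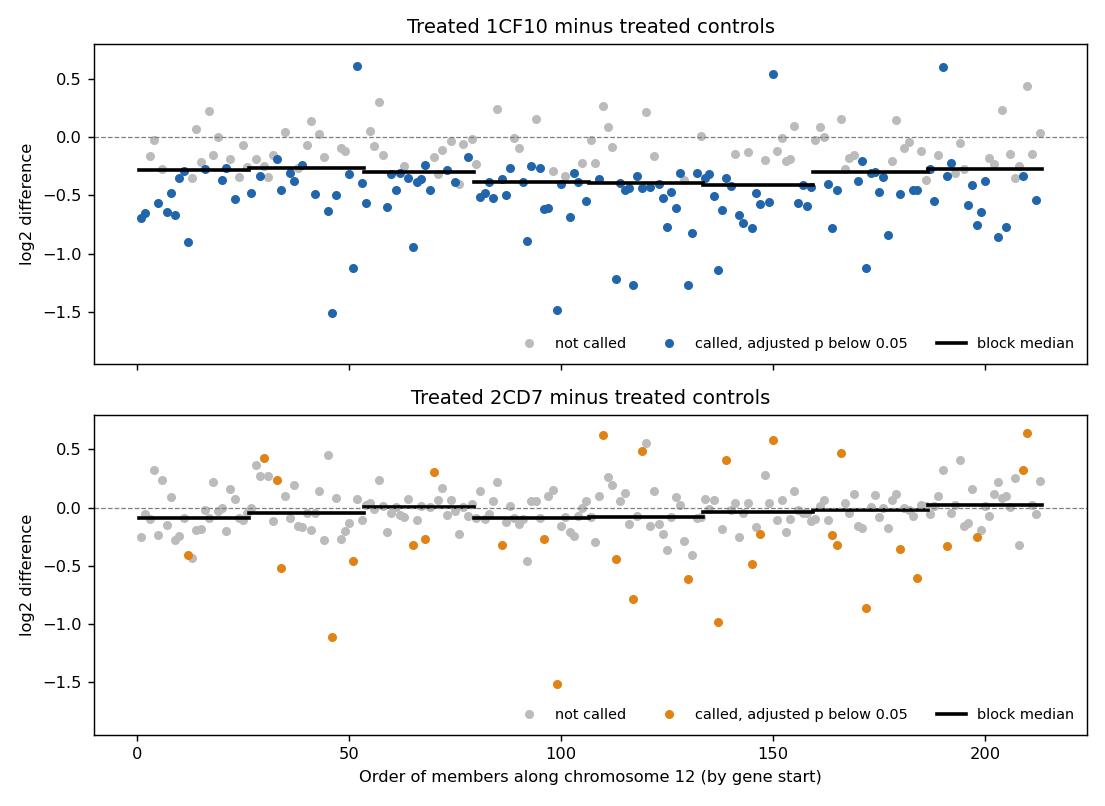
Log2 difference from treated controls (y axis) of the 213 placed members in their order along chromosome 12 (x axis) for 1CF10 (top) and 2CD7 (bottom). Coloured points passed the test, grey points did not, and black bars are medians of 8 blocks of 26 or 27 members. In 1CF10 the bars lie between -0.27 and -0.41, and in 2CD7 between -0.09 and 0.02.

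Translation genes made up 14 members, of which 11 were lower and 0 higher in treated 1CF10, with a median of -0.33. For comparison with this and the following lists, 57% of all members were lower and 1.4% higher, with a median of -0.32. The shares over all tested genes were 15% and 13.3%. List medians ran from -0.41 to -0.22, around the median of all members, so no list is read as a result of its own. Rps29 held 346, 312 and 303 CPM in the treated 1CF10 libraries, 389, 406 and 417 in 2CD7, 444, 441 and 439 in EV and 395, 446 and 389.6 in WT. This gene encodes a protein of the small ribosomal subunit, and its 1CF10 libraries lay below all others of the same treatment. The log2 difference of treated 1CF10 from controls was -0.50 (SE 0.06, adjusted p = 4.18e-10), and treated 2CD7 was 0.37 above 1CF10 (adjusted p = 3.12e-05). Rps7 held 341, 329 and 304 CPM in the treated 1CF10 libraries, 371, 386 and 350.3 in 2CD7, 362, 374 and 405 in EV and 346, 395 and 395 in WT. Rps7 (chr12:28630854-28635953, minus strand), of the same subunit, was again lowest in 1CF10 without overlap, at -0.31 (SE 0.06, adjusted p = 5.16e-05). Ribosomal protein genes have many processed pseudogenes, so both counts are uncertain by the reads such copies may take. Eif5, which helps the ribosome settle on the start codon, was lower at -0.22 (adjusted p = 0.00449), but by -0.46 against EV and 0.01 against WT, since EV stood 0.47 above WT.

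Of 15 members for protein folding and turnover, 9 were lower and 0 higher, with a median of -0.29. Psmc1 held 239.8, 252 and 256 CPM in the treated 1CF10 libraries, 333, 291 and 315 in 2CD7, 328, 291 and 318 in EV and 314, 309 and 314 in WT. Psmc1, an ATPase of the proteasome cap, was lower by the same size against either control, at -0.41 (SE 0.06, adjusted p = 1.38e-07) over both, with no overlap. Fkbp3, a nuclear prolyl isomerase, was at -0.52 (adjusted p = 1.12e-09). Hsp90aa1, the inducible HSP90 chaperone and one of the most counted members, did not pass the test. Hsp90aa1 stood at 636, 611 and 688 CPM in the treated 1CF10 libraries, 749, 662 and 666 in 2CD7, 698, 737 and 750.2 in EV and 614, 617 and 549.6 in WT. Its 1CF10 libraries overlapped both WT and 2CD7 in CPM without TMM scaling, and WT alone after it. The log2 difference was -0.12 (adjusted p = 0.106). The call of Hsp90aa1 turned on single libraries, as it passed without 1CF10 replicate 3 at -0.16 and without WT replicate 3 at -0.15.

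RNA processing genes numbered 16, with 11 lower, 0 higher and a median of -0.36. Rbm25 held 681, 740.4 and 633 CPM in the treated 1CF10 libraries, 893, 889 and 853 in 2CD7, 952, 944 and 924 in EV and 857, 858 and 832 in WT. Rbm25 (chr12:83631236-83683123, plus strand), a regulator of splicing, had every 1CF10 library below every other treated library. Untreated, it held 646, 643 and 760.0 CPM in 1CF10, 878, 879 and 918 in 2CD7, 911, 1040.5 and 879.8 in EV and 810.3, 814 and 788 in WT. The treated difference from controls was -0.47 (SE 0.06, adjusted p = 4.91e-10), and 2CD7 differed from controls by -0.08 (adjusted p = 0.444). Erh, a small conserved nuclear protein, was at -0.43 (adjusted p = 7.58e-08), and the RNA helicase gene Ddx1 at -0.37 (adjusted p = 2.95e-06).

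Vesicle traffic genes numbered 16, with 12 lower, 0 higher and a median of -0.41. Laptm4a held 146, 156 and 156 CPM in the treated 1CF10 libraries, 205, 204 and 217 in 2CD7, 254, 259 and 259 in EV and 281, 273 and 278 in WT. Laptm4a (chr12:8921664-8938742, plus strand), a membrane protein of endosomes and lysosomes, formed a graded order without overlap, with 1CF10 lowest, then 2CD7, then the controls. Untreated, it held 142, 151 and 164 CPM in 1CF10, 203, 198 and 194 in 2CD7, 243, 215 and 226 in EV and 261, 275 and 241 in WT. Treated 1CF10 differed from controls by -0.90 (SE 0.06, adjusted p = 1.06e-18), and 2CD7 also by -0.41 (SE 0.06, adjusted p = 3.12e-07) treated and -0.30 (adjusted p = 0.000915) untreated. Tmed10, a cargo receptor between the endoplasmic reticulum and the Golgi, was lower in 1CF10 at -0.51 (adjusted p = 7.27e-09) and stood at 0.07 (adjusted p = 0.606) in 2CD7. Bzw2, placed in this list although it is known as a regulator of translation initiation, was at -0.32 (adjusted p = 0.000469) in 1CF10.

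Metabolic and mitochondrial genes numbered 19, with 14 lower, 0 higher and a median of -0.38. Npc2 held 203, 206 and 195 CPM in the treated 1CF10 libraries, 293, 298 and 339.8 in 2CD7, 411, 427 and 397 in EV and 505, 491 and 524 in WT. Npc2 (chr12:84754562-84773152, minus strand), which carries cholesterol out of lysosomes, was lowest in 1CF10, then in 2CD7, then in EV and highest in WT, with no overlap. Untreated, it held 188, 203 and 201 CPM in 1CF10, 285, 295 and 304 in 2CD7, 311, 307 and 322 in EV and 328, 357 and 331 in WT. Treated 1CF10 differed from controls by -1.27 (SE 0.06, adjusted p = 9.09e-27) and treated 2CD7 by -0.61 (SE 0.06, adjusted p = 1.32e-13). Npc2 was also called higher with IFN beta in both controls, so the treated control levels include that rise. Atp6v1d, a subunit of the proton pump that acidifies lysosomes, was at -0.45 (adjusted p = 1.23e-05) in 1CF10. Acp1, a small tyrosine phosphatase, was at -0.24 (adjusted p = 0.0033), a call that was lost without 1CF10 replicate 3 at -0.17.

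Signalling genes numbered 12, with 8 lower, 1 higher (Traf3) and a median of -0.32. Ywhaq, a 14-3-3 adaptor, and Tnfaip2, a cytoplasmic protein induced by tumour necrosis factor, depended on the control used. Ywhaq held 274, 277 and 259 CPM in the treated 1CF10 libraries, 323, 341 and 404 in 2CD7, 267, 255 and 241 in EV and 331, 331 and 331 in WT. The 1CF10 libraries of Ywhaq overlapped EV and lay below WT and 2CD7. Ywhaq was at -0.00027 against EV and -0.38 against WT, and Tnfaip2 at -0.70 and 0.03. The Ywhaq call over both controls, -0.19 (adjusted p = 0.0117), was lost without 1CF10 replicate 3 at -0.15.

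DNA repair and cell cycle genes numbered 10, with 6 lower, 0 higher and a median of -0.27. Smc6 held 139, 130.2 and 139 CPM in the treated 1CF10 libraries, 163, 156 and 157 in 2CD7, 150.3, 162 and 164 in EV and 164, 134 and 156 in WT. Smc6, a core subunit of the SMC5/6 repair complex, was lower at -0.27 (SE 0.07, adjusted p = 0.00161). The treated 1CF10 libraries overlapped those of WT in CPM without TMM scaling and lay below them after it. Siva1, a p53-induced regulator of apoptosis, was at -0.38 (adjusted p = 0.000244). Cinp, a genome maintenance protein bound to CDK2, was at -0.27 (adjusted p = 0.0401), and its call was lost when any of 4 libraries was left out, at -0.24 to -0.26 (1CF10 replicates 1 and 2, EV replicate 2 and WT replicate 2).

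Transcription and chromatin genes numbered 18, with 8 lower, 1 higher (Ifrd1) and a median of -0.22. Irf2bpl, a nuclear protein related to partners of an interferon regulatory factor, was at -0.66 (adjusted p = 1.47e-07). Baz1a, a subunit of a nucleosome remodelling complex, was at -0.24 (adjusted p = 0.0424), a call lost without any of 6 libraries, at -0.19 to -0.24 (replicates 1 and 2 of 1CF10, EV and WT). Jdp2, a partner and repressor of AP-1, was at -1.14 (SE 0.15, adjusted p = 1.49e-08). Jdp2 held 15.7, 11.2 and 17.1 CPM in the treated 1CF10 libraries, 15.6, 14.5 and 18.6 in 2CD7, 27.0, 32.0 and 32.5 in EV and 34.2, 29.2 and 29.7 in WT. Both clones lay below the controls for Jdp2, and they overlapped each other. Jdp2 was also called higher with IFN beta in both controls, so the treated control levels include that rise.

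Cytoskeleton, adhesion and matrix genes numbered 17, with 8 lower, 1 higher (Flrt2) and a median of -0.24. Crip2, a LIM-domain protein, was lower in treated 1CF10 at -0.33 (adjusted p = 7.3e-06) and higher in treated 2CD7 at 0.32 (adjusted p = 1.35e-05), so that the clones stood 0.66 apart. Crip2 held 323, 348 and 334 CPM in the treated 1CF10 libraries, 466, 535 and 542 in 2CD7, 392, 341 and 405 in EV and 418, 420.4 and 408 in WT. The 1CF10 libraries were the lowest of the 4 lines, and the 2CD7 libraries were the highest. In CPM without TMM scaling 1CF10 overlapped EV, and after TMM scaling it lay below EV. Crip1 stood at 809, 417 and 365 CPM in the treated 1CF10 libraries, 534, 612 and 652 in 2CD7, 294, 272 and 284 in EV and 473, 482 and 496 in WT. For Crip1, its neighbour on the chromosome, 1CF10 replicate 1 lay far above the other libraries, and the treated 1CF10 difference of 0.44 (adjusted p = 0.092) became -0.03 without it. Actn1, an actin crosslinker, also had a wide spread, with 355, 86.9 and 108 CPM in treated 1CF10, and its difference of 0.22 (adjusted p = 0.815) became -0.75 without the same library. The remaining 77 members in no list had a median of -0.25, with 35 lower and 0 higher.

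Nampt had the lowest treated difference of all members. Nampt held 55.3, 51.6 and 53.6 CPM in the treated 1CF10 libraries, 69.2, 60.2 and 79.4 in 2CD7, 141, 148 and 147 in EV and 154, 124 and 149 in WT. Nampt (chr12:32819545-32853349, plus strand), the rate-limiting enzyme of NAD salvage, was at -1.51 (SE 0.09, adjusted p = 1.5e-21) in treated 1CF10, with both clones below both controls and 1CF10 below 2CD7. Untreated, it held 61.5, 60.0 and 55.9 CPM in 1CF10, 69.1, 64.5 and 61.5 in 2CD7, 79.1, 86.4 and 86.6 in EV and 59.9, 77.1 and 76.3 in WT. Daam1, a formin of Wnt and planar polarity signalling, was at -1.48 (SE 0.13, adjusted p = 1.03e-11), and Plek2, a pleckstrin-type protein of the membrane and actin cytoskeleton, at -1.27 (SE 0.14, adjusted p = 1.1e-10). Daam1 held 34.5, 29.95 and 38.4 CPM in the treated 1CF10 libraries, 36.3, 29.4 and 33.1 in 2CD7, 72.7, 100.0 and 106 in EV and 85.5, 82.4 and 95.7 in WT. For Daam1 the 2 clones overlapped and both lay below both controls. Nampt, Daam1 and Plek2 were called higher with IFN beta in both controls, as given below, so their treated control levels include that rise. Without treatment, the 1CF10 libraries of Daam1 overlapped those of WT. Fut8, which adds core fucose to N-glycans, was at -1.22 (SE 0.15, adjusted p = 1.06e-09) without a called response to IFN beta in any line. Fut8 held 16.4, 17.5 and 14.1 CPM in the treated 1CF10 libraries, 24.7, 23.0 and 33.1 in 2CD7, 37.2, 33.1 and 28.6 in EV and 34.2, 35.1 and 42.3 in WT. The 1CF10 libraries of Fut8 lay below all others, and 2CD7 overlapped EV.

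The calls of the 3 higher members depended on the control used or on 1 library. Ifrd1 held 153, 135 and 157 CPM in the treated 1CF10 libraries, 112, 106 and 78.9 in 2CD7, 129.9, 124 and 127 in EV and 79.4, 57.0 and 60.3 in WT. Ifrd1 (chr12:40201567-40248504, minus strand), a transcriptional coregulator, was 0.62 (SE 0.09, adjusted p = 4.23e-07) above the mean of the controls, but 0.14 above EV (adjusted p = 0.386) and 1.09 above WT. EV was itself 0.95 above WT. In CPM without TMM scaling the treated 1CF10 libraries lay above those of both controls and of 2CD7. After TMM scaling they overlapped EV. Traf3 held 16.4, 28.7 and 26.2 CPM in the treated 1CF10 libraries, 21.2, 20.2 and 14.5 in 2CD7, 20.0, 18.2 and 17.9 in EV and 12.9, 9.04 and 11.8 in WT. Traf3, an adaptor of tumour necrosis factor receptor and innate immune signalling, was at 0.61 (SE 0.17, adjusted p = 0.00391), and the call was lost without 1CF10 replicate 2 at 0.45. Flrt2 held 44.5, 41.6 and 64.6 CPM in the treated 1CF10 libraries, 53.7, 42.9 and 56.3 in 2CD7, 22.5, 32.0 and 29.1 in EV and 33.8, 42.1 and 37.0 in WT. Flrt2, an adhesion protein of the cell surface, was at 0.54 (SE 0.12, adjusted p = 0.000378) in 1CF10, lost without 1CF10 replicate 3 at 0.33, and at 0.59 (SE 0.12, adjusted p = 0.000277) in 2CD7.

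**Figure D5:**
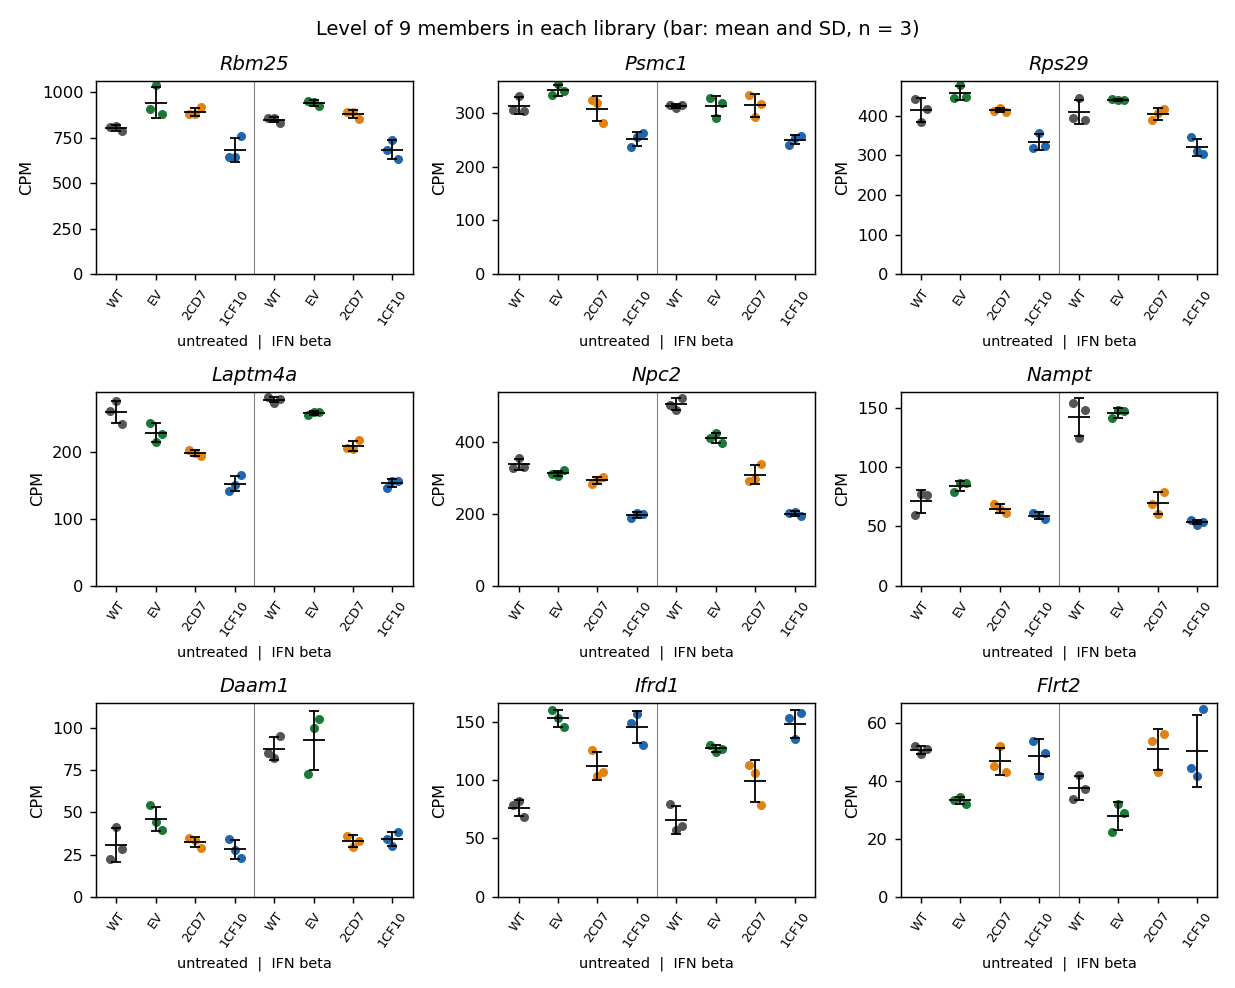
CPM (y axis, from 0) of 9 members in each of 24 libraries, by line without treatment (left of the grey line) and with IFN beta (right). Points are libraries and bars are the mean and SD of 3. Rbm25, Psmc1, Rps29 and Laptm4a are lowest in 1CF10 with and without treatment, Npc2, Nampt and Daam1 rise with IFN beta in WT and EV, and the treated means of Ifrd1 and Flrt2 are higher in 1CF10 than in WT and EV.

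The other knockout clone, 2CD7, stood closer to the controls. In treated 2CD7 the median over members was -0.04, with 22 lower and 10 higher, where 7.13% of all tested genes were lower and 5.4% higher. The 18 members called in the response of EV or WT to IFN beta held 9 of the lower and 1 of the higher calls. The other 196 members held 13 lower and 9 higher. Scaling by library totals gave 15 lower and 12 higher with a median of 0.0076. Without 2CD7 replicate 2 the lower count was 14, and without replicate 3 the higher count was 5. The lowest were Daam1 at -1.51 (SE 0.14, adjusted p = 2.02e-11), Nampt at -1.11 (SE 0.09, adjusted p = 3.62e-16) and Jdp2 at -0.98 (SE 0.15, adjusted p = 1.22e-06). The highest were Crip1 at 0.64 (adjusted p = 0.0306), a call lost without any of 7 libraries (treated 2CD7 replicates 2 and 3, EV replicates 2 and 3 and all 3 of WT), Zbtb1, a zinc finger repressor, at 0.63 (adjusted p = 0.00526), lost without 2CD7 replicate 3 at 0.50, and Flrt2.

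Untreated 2CD7 had a median of -0.08, with 7 lower and 3 higher, against 1.98% and 1.44% of all tested genes. Together these 10 calls fell to 6, 6 and 4 when 2CD7 replicates 1, 2 and 3 were left out in turn. The 3 treated 2CD7 libraries lay below all 6 controls for 24 members and above for 7, where 6.71% and 4.33% of tested genes did so. Untreated, the counts were 11 and 3, against 3.33% and 2.32%.

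Compared directly, treated 2CD7 was higher than treated 1CF10 for 86 members and lower for 1, Ifrd1, with a median of 0.29 and with 13.6% of members below 0. Of all tested genes, 8.76% were higher and 6.41% lower, with a median of -0.0030. Chromosome 12 had the highest median of the 20 chromosomes in this comparison, followed by chromosome 14 at 0.23. As the chromosome was chosen on low levels in untreated 1CF10, the direction and rank of this difference were favoured by the choice.

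The 2 controls differed from each other on this chromosome by less. Treated EV was higher than treated WT for 40 members and lower for 12, with a median of 0.07, where 9.7% of all tested genes were higher and 9.45% lower. Untreated, 41 were higher and 13 lower with a median of 0.08, against 6.96% and 7.14%. Of these, 24 were higher and 10 lower with and without treatment, a joint count for which the share of all tested genes was not taken. The count of 40 was 26 without treated WT replicate 2, the count of 12 was 7 without treated EV replicate 1, and the 54 untreated calls were 31 without WT replicate 3.

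Few members were called in the response to IFN beta, and in the controls the shares that rose were near those of all tested genes. The rule had left out interferon-stimulated genes of this chromosome by name, which lowers the count. In 1CF10 and in 2CD7 edgeR called 0 members and DESeq2 0, where edgeR called 0% of all tested genes in each clone, with 11 and 8 members at an unadjusted p below 0.05 by edgeR and 5 and 3 by DESeq2. The members' median response was -0.015 in 1CF10, 0.0091 in 2CD7, -0.0088 in EV and -0.017 in WT. In EV 7 members rose (3.27%) and 5 fell (2.34%), where 3.99% and 1.1% of all tested genes did. In WT 9 rose (4.21%) and 5 fell (2.34%), where 5.01% and 1.84% did. In both lines 8 members were called, and the share of all tested genes was not taken for this joint count. The 12 calls in EV were 7 without treated EV replicate 1, the 14 in WT were 8 without untreated WT replicate 2, and DESeq2 gave 8 in WT.

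Members that rose were led in both controls by Daam1, at 1.05 (SE 0.14, adjusted p = 6.98e-07) in EV and 1.58 (SE 0.16, adjusted p = 2.26e-10) in WT, and Nampt, at 0.84 (SE 0.10, adjusted p = 3.77e-10) and 1.04 (SE 0.10, adjusted p = 4.44e-13). Untreated Daam1 stood at 34.2, 27.5 and 22.9 CPM in 1CF10, 34.9, 33.8 and 29.2 in 2CD7, 54.2, 44.2 and 39.9 in EV and 22.4, 41.6 and 28.2 in WT. In both controls the treated libraries lay above all untreated ones, while in each clone treated and untreated libraries overlapped. Jdp2 rose by 0.65 (adjusted p = 0.00751) in EV, lost without untreated EV replicate 3 at 0.59, and by 0.91 (adjusted p = 8.08e-05) in WT. Arl4a, a small GTPase of the ARF family, rose by 0.57 (adjusted p = 0.0494) in EV and 0.93 (adjusted p = 5.39e-05) in WT, and Npc2 by 0.44 (adjusted p = 4.37e-07) and 0.63 (adjusted p = 4.87e-12).

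Of the members that fell, Ncapg2, a condensin II subunit, was at -0.51 (adjusted p = 0.00479) in EV and -0.49 (adjusted p = 0.0128) in WT. Ncapg2 stood at 45.5, 34.1 and 49.0 CPM in the treated 1CF10 libraries, 51.9, 51.7 and 40.4 in 2CD7, 44.1, 40.4 and 46.6 in EV and 42.9, 32.7 and 32.6 in WT. Untreated, it held 36.8, 44.3 and 39.4 CPM in 1CF10, 48.4, 48.8 and 50.5 in 2CD7, 72.3, 64.1 and 55.7 in EV and 52.8, 53.7 and 50.2 in WT. Treated and untreated libraries of each control did not overlap for Ncapg2. Rcor1, of the CoREST repressor complex, was at -0.72 (adjusted p = 0.00973) in EV and 0.35 (adjusted p = 0.367) in WT, and Zbtb1 at -0.64 (adjusted p = 0.0388) and -0.39 (adjusted p = 0.301). The calls in EV were lost for Ncapg2 without treated replicate 2 or untreated replicate 1, for Rcor1 without treated replicate 1 or 3 or untreated replicate 1, and for Zbtb1 without treated replicate 1 or 3 or untreated replicate 2 or 3, and that of Ncapg2 in WT without treated replicate 2 or 3 or untreated replicate 1 or 2. In WT the lowest called were Plekhg3, a guanine nucleotide exchange factor for small GTPases, at -0.75 (adjusted p = 0.002) and the DNA methyltransferase gene Dnmt3a at -0.51 (adjusted p = 0.0352), which lost its call without any 1 of the 6 WT libraries. Lower calls numbered 1 to 4 in EV and 1 to 3 in WT when any single library of the line was left out, against 5 each with all.

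The difference of 1CF10 from controls was also set side by side with and without treatment, as the treated minus the untreated difference. This term holds the untreated 1CF10 libraries on which the chromosome was chosen, so its values are a description, and nothing is read from its counts. A choice on low untreated levels can by itself shift members towards more positive values of this term. Its median was -0.0041, and edgeR called 6 members more negative after treatment and 5 more positive, where 2.92% and 0.872% of all tested genes were called. The 6 were Nampt at -1.09, Daam1 at -1.03, Arl4a at -0.92, Plek2 at -0.89, Ddx24 at -0.56 and Npc2 at -0.52. The responses of the controls enter this term through the same libraries, and that of Plek2 was 0.65 (adjusted p = 0.00325) in EV and 0.51 (adjusted p = 0.0209) in WT. Ddx24 held 155, 164 and 141 CPM in the treated 1CF10 libraries, 182, 174 and 179.7 in 2CD7, 309, 343 and 339.6 in EV and 308, 278 and 305 in WT. Untreated, it held 154, 145 and 152 CPM in 1CF10, 165, 173 and 154 in 2CD7, 229.6, 279 and 259.9 in EV and 162, 225 and 166 in WT. Ddx24 (chr12:103407982-103425830, minus strand), an RNA helicase of the nucleolus, rose by 0.41 (adjusted p = 0.000451) in EV and 0.74 (adjusted p = 2.06e-09) in WT, with no overlap between treated and untreated libraries of either control. In the clones its responses were 0.01 (adjusted p = 0.998) in 1CF10 and 0.12 (adjusted p = 0.997) in 2CD7.

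The 5 more positive members were Zbtb1 at 0.95, Traf3 at 0.86, Cdca4, a cell cycle regulated nuclear protein, at 0.62, Ncapg2 at 0.58 and the kinase gene Rock2, known for regulating actomyosin contraction, at 0.46. Rock2 held 66.0, 64.9 and 68.8 CPM in the treated 1CF10 libraries, 92.6, 84.3 and 71.2 in 2CD7, 67.8, 74.6 and 75.6 in EV and 71.8, 71.6 and 66.8 in WT. Untreated, it held 59.8, 51.8 and 48.8 CPM in 1CF10, 80.0, 78.3 and 85.2 in 2CD7, 93.9, 86.8 and 80.9 in EV and 70.2, 74.5 and 83.6 in WT. Rock2 in 1CF10 was lower than in every other line without treatment. With treatment it overlapped both controls in CPM without TMM scaling, and after TMM scaling it lay below both. These 11 calls were 7 by DESeq2 and 7 without treated 1CF10 replicate 3, where the more positive count was 1 in each case.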

How the data were processed

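Total RNA of 24 libraries was primed at the poly(A) tail and counted by unique molecular identifiers (UMIs). The values used are the UMI counts per gene that the authors deposited without normalization, 1 column per library. The submitters' processing notes name cutadapt 3.0, R 3.6.2 and 4.1.2, edgeR 3.36.0, limma 3.50.0, and GRCm38 and mm10 as builds. No aligner is given in the sources used, nor whether counting used strand.

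Libraries were grouped by line and treatment from the labels. Genes were kept by filterByExpr (minimum count 10, minimum total 15), which left 11698 genes with 99.5% to 99.6% of UMIs, and 24 libraries were fitted together on 8 group means with edgeR 4.0.16 in R 4.3.3 (TMM scaling, robust quasi-likelihood F test). A gene was called where its Benjamini-Hochberg adjusted p, over all tested genes, was under 0.05, and an SE is the log2 difference divided by the square root of F. Scripts were checked on simulated data. The members, lists and rules were chosen with earlier results of these data known. Named genes were the 3 most counted members of each list, the 6 lowest and 6 highest members called in treated 1CF10, the 3 per direction in treated 2CD7 and in each control's response, and the 2 on each side of the minimum. Genes called in the treated minus untreated term of 1CF10 were named in addition, after their values were seen. 1 gene that this rule names is not reported here. Coordinates are from GENCODE M21. Overlap of libraries for single genes was read from CPM without TMM scaling unless stated. Counts of members below or above all control libraries used CPM after TMM scaling. Library pairs of a group differed by more than sampling noise. Replicate numbers were not taken to pair samples (mean correlation of deviations 0.0093 within a number, -0.0046 otherwise). DESeq2 1.42.0 and the other settings are described at the end.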

Additional observations from a re-analysis of the deposited data

Results flagged for a closer look

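The 2 knockout clones differed from each other after treatment in edgeR's test of that difference. Of the members, 86 were called higher and 1 lower in treated 2CD7 than in treated 1CF10, where 8.76% of all tested genes were called higher and 6.41% lower. Chromosome 12 was chosen on low levels in untreated 1CF10, so the direction of this difference was favoured by the choice. Without treatment, 2CD7 already stood 0.26 above 1CF10 by the median, with 11.2% of members below 0.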

How the results depend on the processing

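Counts of called members and medians kept their direction and stayed within 1.5 times the count, or within the spread between libraries for a median, in 205 of 227 comparisons with other settings. Scaling by library totals in place of TMM gave medians of -0.23 for treated 1CF10 against controls, -0.28 against EV, -0.20 against WT, -0.34 for untreated 1CF10, 0.25 for treated 2CD7 minus treated 1CF10, -0.050 for the response of EV and -0.061 for that of WT. It turned the medians of treated 2CD7 to 0.0076 and of the treated minus untreated term of 1CF10 to 0.055. TMM without chromosome 12 gave -0.31 against WT. The small median response of WT, -0.017, moved to -0.0030 with RLE size factors, -0.0024 without a filter, -0.0049 with the compared groups alone and -0.0030 with DESeq2, and turned to 0.0032 with TMM without chromosome 12 and 0.0023 with a minimum count of 30. DESeq2 gave 8 calls in the response of WT and 7 in that term of 1CF10. With a mean of at least 100 UMIs, 83 members were called in treated 1CF10, as fewer members were tested. Protein-coding members alone, a setting chosen after seeing the data, gave medians of -0.35 treated and -0.39 untreated. With 10 blocks the highest block median in treated 1CF10 was -0.19. Where not shown by the construction of a setting, the cause was not tested.

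Leaving out each library in turn gave ranges of 21 to 30 calls in treated 2CD7, 4 to 12 in untreated 2CD7, 31 to 44 in untreated EV minus WT, 7 to 9 in the response of EV, 8 to 11 in that of WT and 7 to 13 in that term of 1CF10. Medians ranged from -0.34 to -0.30 in treated 1CF10, -0.37 to -0.35 in untreated 1CF10, -0.074 to -0.045 in untreated 2CD7, -0.013 to 0.023 in the response of 2CD7, -0.019 to -0.00093 in that of WT and -0.043 to 0.0038 in that term of 1CF10. Without treated 1CF10 replicate 1, Crip1 turned to -0.029 and Actn1 to -0.75 in treated 1CF10, the lowest values of ranges that reached 0.66 for Crip1 and 0.54 for Actn1. With the replicate number as a block, 126 members were called in treated 1CF10 with a median of -0.32, and the block changed no call of a named gene and no count by over 1.5 times. Replicate numbers were not taken to pair the samples, since the correlations of deviations between same-numbered libraries ran from -0.077 to 0.083. As a hint from the data and not the design, 13 of 24 libraries correlated best with their own number. UMI depth limited precision for members near 40 UMIs, where SEs were about 0.16 to 0.18 (Rdh14 and Nudt14).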
